A study of Mus musculus with 2 samples.

Results

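The clustered protocadherin genes were described in cells of mouse dorsal root ganglia, the clusters of sensory neuron bodies and glia beside the spinal cord. Members were all genes whose symbol is Pcdha, Pcdhac, Pcdhb, Pcdhga, Pcdhgb or Pcdhgc followed by a number, which gave 56 of the 19059 genes in the deposited matrices. By symbol, 12 were alternate alpha genes, 22 beta, 11 gamma A, 6 gamma B and 5 C-type (Pcdhac1, Pcdhac2, Pcdhgc3, Pcdhgc4 and Pcdhgc5). All 56 lie on the plus strand of chromosome 18 in GRCm39, between positions 37063237 and 37975014. GENCODE vM39 annotates 58 such genes there, and Pcdhga4 and Pcdhgb8 were not analysed here. The symbol Pcdha11 stood on 2 rows, and the row with identifier ENSMUSG00000007440 is named Pcdha10 in GENCODE vM39 and is called Pcdha10 below.

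Clustered protocadherins are cell-surface cadherins that bind the same isoform on a facing membrane, and they are known for self-recognition of neurites, synapse formation and neuron survival. The alternate alpha and gamma genes are each a first exon with its own promoter, spliced to constant exons at the end of the cluster, whereas each beta gene is a single exon. Single neurons are known to transcribe a small set of the alternate promoters, chosen largely at random under CTCF, cohesin and DNA methylation, while C-type promoters are known to be regulated apart from the alternate ones and are thought of as more constitutive.

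The study compared 2 libraries, 1 per group, each pooled from cervical ganglia (C2 to C7). The control group was Foxp3 CreER; Penk fl/WT and the other group, here called Treg_Penk_KO, was Foxp3 CreER; Penk fl/fl. Both groups carry the Foxp3-driven inducible Cre and a floxed Penk allele, both received tamoxifen, and both had 3 days of imiquimod, a topical agent that inflames skin. By its Foxp3 driver, Cre is expected in regulatory T cells and not in the ganglion neurons measured, but where it acted was not tested. The labels give neither the number of mice in a pool nor their age. The labels call the assay fixed-cell single-cell RNA-seq (Flex), in which pairs of probes are read out per gene, while the series text calls it single-nucleus. With 1 library per group there is no replicate, so no p-value is given and every interval covers counting error only.

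There were 15710 barcodes with 259136217 unique molecular identifiers (UMIs) in the control matrix and 12067 with 156441497 UMIs in the Treg_Penk_KO matrix. Penk itself had 582 UMIs (2.25 CPM) over all cells of the control library and 4 (0.0256 CPM) over all cells of the Treg_Penk_KO library. No cluster was named after T cells, so the ganglion cells cannot be taken as unaltered at Penk, and the cause of this difference was not tested. The 2 libraries shared 4723 droplet barcodes, which held 30.1% and 39.2% of their kept cells. Neurons numbered 6337 control and 4838 Treg_Penk_KO cells, with median totals of 10942 and 7950.0 UMIs. Clusters were named after the marker genes they resembled ("-like"), and none of the 56 genes took part in the clustering. Cells of 9 named neuron subtypes were compared, with 3 further neuron clusters left unnamed. RNA of neurons was present in every non-neuronal class: the summed level of 6 neuron markers was 7654 and 7623 CPM in neurons and 3762 and 3843 CPM in satellite glia-like cells, in the control and Treg_Penk_KO libraries respectively. Throughout, paired values are in that order. A level in CPM is a gene's UMIs per 1000000 UMIs of a class in 1 library, and since the sources used here do not give the number of probe pairs per gene, levels of a gene were compared between cells, and no level was compared between genes. Shares of UMIs between genes, such as a group's share or the gene that leads in a cell, depend also on that number. The probes' positions in the genes are not given either, so UMIs of near-identical copies, above all among the beta genes, may be split uncertainly.

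The 56 genes together held 254044 UMIs, which was 0.0611% of all UMIs. The 5 C-type genes held 38.1% of these UMIs, the beta genes 22.0%, the alternate alpha genes 17.8%, the gamma A genes 17.4% and the gamma B genes 4.74%. In neurons the summed level was 617 and 598 CPM. The least detected member was Pcdhb1, with 13 and 4 UMIs in neurons, and the other 55 reached the 100 UMIs asked for in the comparisons below.

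Summed by group, the subtypes differed most in the C-type genes. The summed C-type level was lowest in Mrgprd nonpeptidergic-like neurons, a class of C-fibre nociceptors, at 117 (114 to 120.1, exact Poisson 95% interval) and 119 (115 to 123) CPM. A-delta LTMR-like neurons, which are low-threshold touch receptors, stood at 416 (404 to 428) and 374 (359 to 389) CPM. Peptidergic A-fibre-like nociceptors stood beside them at 395 and 381 CPM, and were the highest named subtype in the Treg_Penk_KO library, with overlapping intervals. In the same range lay the unnamed clusters led by Htr3a with Trappc3l and S100a16 (412 and 417 CPM) and by Pcp4l1 with S100a16 and Pcp4 (407 and 382 CPM). In fold terms the alternate alpha, beta and gamma A genes spanned less and the gamma B genes nearly as much, and other subtypes led them. Alternate alpha genes were lowest in proprioceptor-like neurons, the muscle and joint sensors, at 77.7 and 81.9 CPM, and highest in peptidergic C-like nociceptors at 182 and 173 CPM. Beta genes were lowest in Sst/Nppb pruriceptor-like neurons at 108 and 101 CPM and highest in Trpm8 cold-like neurons at 228 and 217 CPM. The lowest beta class was not resolved, since its intervals overlapped those of the Mrgprd nonpeptidergic-like (110.4 and 104 CPM), C-LTMR-like (111 and 105 CPM) and peptidergic A-fibre-like neurons (115 and 108 CPM). Gamma A genes were lowest in proprioceptor-like neurons at 73.6 and 69.4 CPM and highest in peptidergic C-like neurons at 192 and 178 CPM. Gamma B genes were lowest in proprioceptor-like neurons at 16.6 and 16.5 CPM and highest in Trpm8 cold-like neurons at 56.6 and 47.7 CPM. The intervals of the latter met those of the peptidergic C-like neurons at 46.1 and 41.5 CPM. These orders are among the named subtypes. The unnamed cluster led by Pcp4l1 was lower still in beta (98.5 and 85.7 CPM) and gamma B genes (14.9 and 7.91 CPM). An unnamed cluster led by Lgi2 with Calb1 and Slc17a7 was lower in gamma A genes (66.4 and 64.3 CPM).

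**Figure D1:**
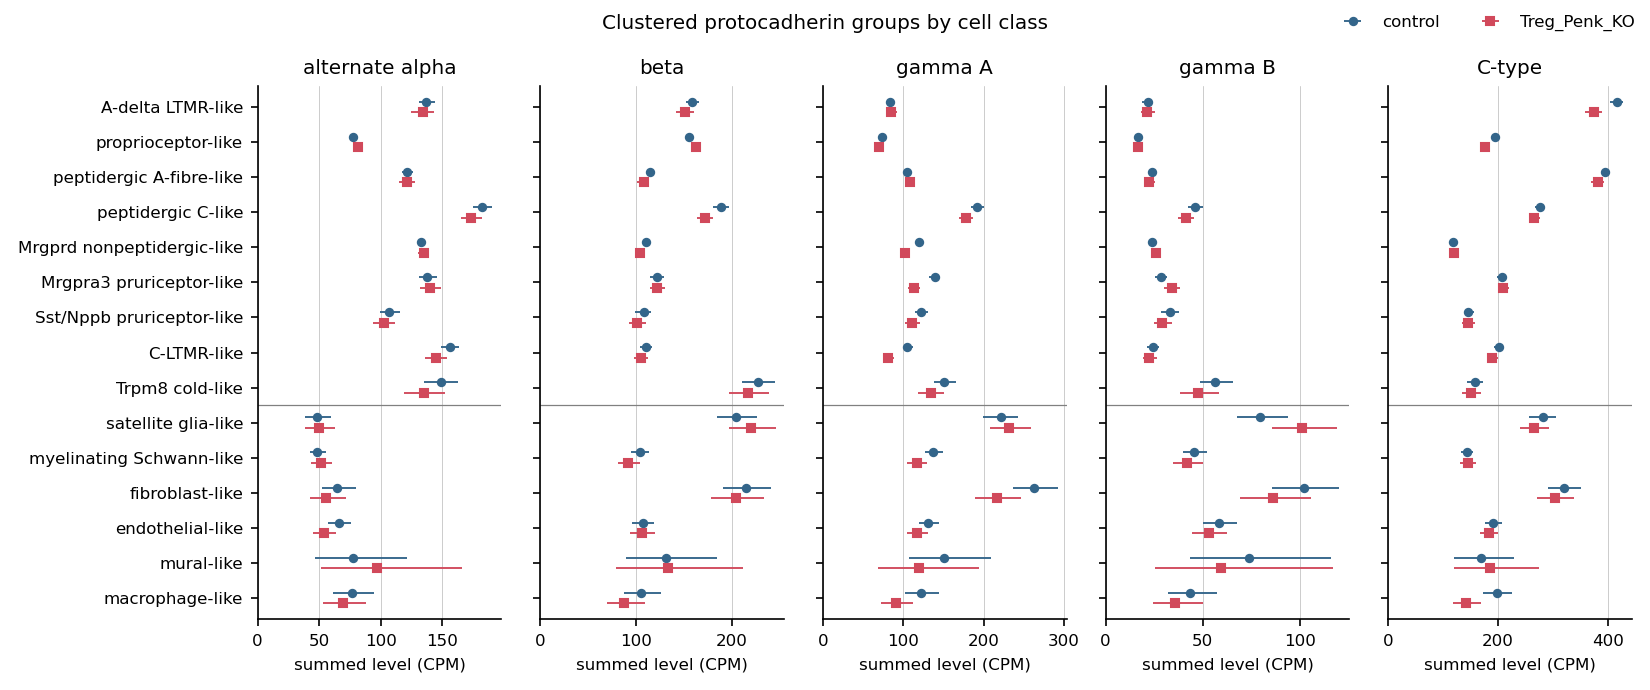
Summed level in CPM (x axes, each from 0) of the 5 gene groups in the 9 named neuron subtypes (above the grey line) and in 6 non-neuronal classes (below it), with blue circles for control, red squares for Treg_Penk_KO and bars for exact Poisson 95% intervals. C-type genes stood at 416 and 374 CPM in A-delta LTMR-like neurons against 117 and 119 CPM in Mrgprd nonpeptidergic-like neurons. Alternate alpha genes were lowest in satellite glia-like cells (48.3 and 49.7 CPM) and Schwann-like cells (48.5 and 51.7 CPM).

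The C-type genes differed in their order of subtypes, and each gene's order was similar in both libraries. Pcdhac1, whose promoter sits at the end of the alternate alpha array, was highest in A-fibre classes. It stood at 101 (96.8 to 105) and 92.3 (86.6 to 98.2) CPM in peptidergic A-fibre-like neurons. The next named subtypes were A-delta LTMR-like neurons at 45.3 and 39.7 CPM and proprioceptor-like neurons at 28.6 and 22.5 CPM. All 6 C-fibre and cold classes lay at 14.5 CPM or below in both libraries, down to 5.35 (3.68 to 7.51) and 4.90 (3.17 to 7.24) CPM in Sst/Nppb pruriceptor-like neurons, which carry itch. The highest over the lowest named subtype was 18.9 and 18.8. Above all named subtypes stood 2 unnamed clusters, led by Pcp4l1 with S100a16 and Pcp4 (140.2 and 140.3 CPM) and by Htr3a with Trappc3l and S100a16 (135 and 129 CPM).

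Pcdhac2, the other alpha C-type gene and the one with most UMIs of all members, was high in the same A-fibre classes but was not confined to them. It was highest in A-delta LTMR-like neurons, at 336 (325 to 347) and 303 (289.9 to 317) CPM, followed by peptidergic A-fibre-like neurons at 249 and 243 CPM. A middle range held C-LTMR-like neurons, the unmyelinated touch fibres, at 142 and 134 CPM, peptidergic C-like neurons at 129.6 and 128, proprioceptor-like neurons at 115 and 105, and Mrgpra3 pruriceptor-like neurons at 104 and 109. The lowest values were those of Trpm8 cold-like neurons at 55.3 and 48.2 CPM and Mrgprd nonpeptidergic-like neurons at 46.9 (44.9 to 49.0) and 46.1 (43.6 to 48.7) CPM. Proprioceptor-like and Mrgpra3 pruriceptor-like neurons changed places between the libraries, so their order was not resolved.

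Pcdhgc3, a gamma C-type gene, ran the other way. Its highest neuronal level was in peptidergic C-like neurons, at 122 (115 to 128) and 111 (104 to 118) CPM, followed by Mrgpra3 pruriceptor-like neurons at 92.1 and 89.4 CPM. Trpm8 cold-like neurons stood at 66.6 and 63.1 CPM, Sst/Nppb pruriceptor-like at 57.7 and 53.3, and Mrgprd nonpeptidergic-like at 57.5 and 59.6. It was lowest in A-delta LTMR-like neurons at 29.2 and 25.4 CPM and in C-LTMR-like neurons at 28.4 (25.3 to 31.8) and 25.4 (21.9 to 29.2) CPM, which did not differ beyond their intervals. Both low classes are touch receptors, and they carried high or middle levels of Pcdhac2.

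Pcdhgc4, a C-type gene known for its part in neuron survival, was highest in Trpm8 cold-like neurons at 15.7 (11.5 to 20.8) and 23.6 (17.3 to 31.5) CPM, from 47 and 46 UMIs. C-LTMR-like neurons followed at 13 and 13.9 CPM, then proprioceptor-like neurons at 7.38 and 7.46 CPM and peptidergic C-like neurons at 6.35 and 8.11 CPM. It was lowest in Sst/Nppb pruriceptor-like neurons at 1.62 (0.777 to 2.98) and 1.18 (0.432 to 2.56) CPM. Pcdhgc5 was also highest in Trpm8 cold-like neurons, at 8.0 (5.12 to 11.9) and 9.24 (5.47 to 14.6) CPM from 24 and 18 UMIs, and its second was the peptidergic C-like class at 4.50 and 4.91 CPM. Its lowest levels, 1.52 and 1.53 CPM in A-delta LTMR-like neurons and 1.68 and 1.45 CPM in proprioceptor-like neurons, were not resolved from each other.

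Across the 9 subtypes in the 2 libraries, taken as 18 points that share cells and depth between genes, the log2 levels of Pcdhac1 and Pcdhac2 had a Pearson r of 0.78 and those of Pcdhgc4 and Pcdhgc5 of 0.66, while Pcdhac1 and Pcdhgc3 had -0.48. Apoe, a satellite glia gene, was high in some neuron clusters. Peptidergic A-fibre-like neurons held a cluster of 347 and 95 cells with 3413 and 3142 CPM of it. Pcdhac1 stood at 106 and 94.7 CPM in that cluster and at 94.0 and 90.6 CPM in the other peptidergic A-fibre-like cells, where Apoe was at 164 and 153 CPM. Pcdhac2 stood at 231 and 217 CPM with Apoe and at 272 and 260.2 CPM without it. With the members used in clustering, a cluster of 370 and 104 cells led by Trappc3l, Htr3a and Apoe stayed unnamed. At clustering resolution 2.0 so did clusters of 251 and 47 and of 147 and 90 cells led by these genes. The peptidergic A-fibre-like name of Apoe-carrying cells thus depended on the clustering. Proprioceptor-like neurons held a cluster of 241 and 124 cells with Apoe at 4199 and 4435 CPM, against 222 and 251 CPM in the other proprioceptor-like cells. That cluster was also deeper, with median totals of 70750 and 40635 UMIs against 8437 and 5796.5. Whether depth or cell identity plays a part in the contrast was not tested. In that cluster alternate alpha genes stood at 86.2 and 87.7 CPM, gamma A at 83.8 and 80.4, gamma B at 20.2 and 25.0 and C-type at 240.3 and 217 CPM. In the other proprioceptor-like cells the same groups stood at 70.3 and 78.5, 64.8 and 62.7, 13.5 and 11.3, and 155 and 152 CPM. The low proprioceptor levels of alternate alpha, gamma A and gamma B genes given above were thus lower still without the Apoe-carrying cluster, and so was the C-type level.

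**Figure D2:**
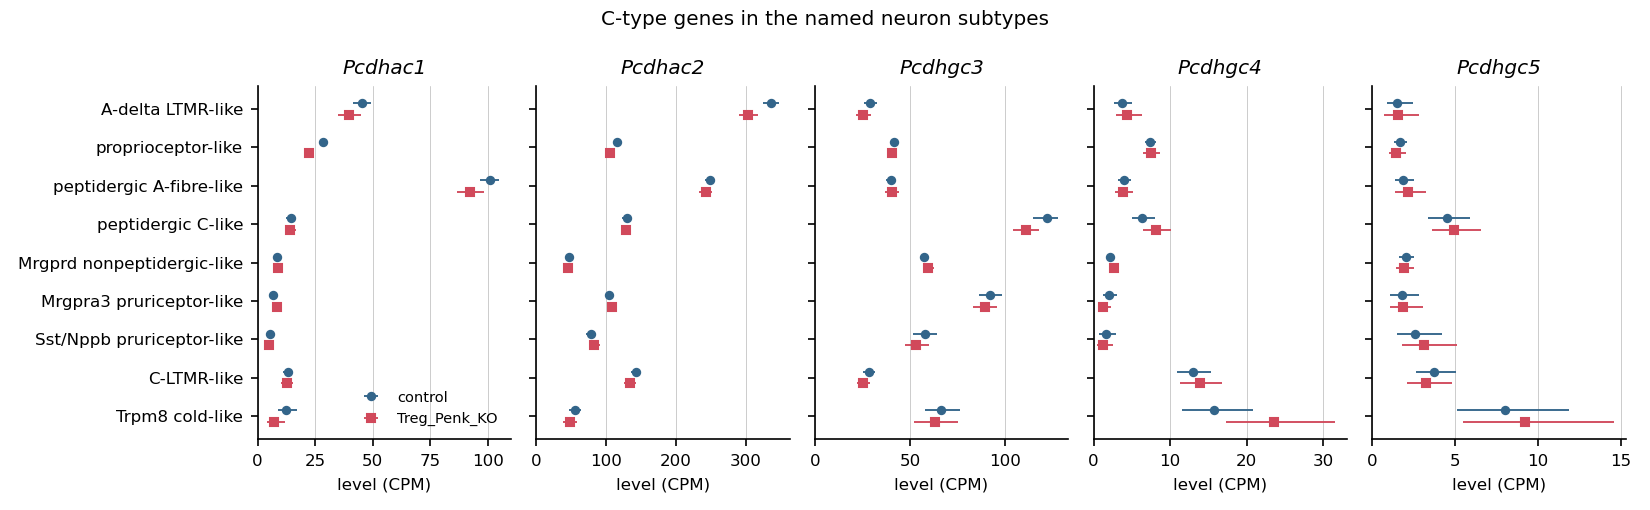
Level in CPM (x axes, each from 0) of the 5 C-type genes in the 9 named neuron subtypes, with blue circles for control, red squares for Treg_Penk_KO and bars for exact Poisson 95% intervals. Pcdhac1 was highest in peptidergic A-fibre-like neurons (101 and 92.3 CPM), Pcdhac2 in A-delta LTMR-like neurons (336 and 303 CPM), Pcdhgc3 in peptidergic C-like neurons (122 and 111 CPM), and Pcdhgc4 and Pcdhgc5 in Trpm8 cold-like neurons.

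To count members by subtype, each subtype was set against all other neurons, and a gene was called where the ratio of CPM was 2-fold or more in the same direction in both libraries. Over the 9 subtypes this gave 27 calls of a higher and 17 of a lower level among the 55 genes. In A-delta LTMR-like neurons 5 members were higher and 1 lower, against 15.8% of all 13499 genes tested called in either direction. The largest ratios there were those of Pcdhb5 (10.4 and 9.93 CPM, 4.27 and 4.71 times the other neurons), Pcdhb6 (2.58 and 2.45 times, on 18 and 9 UMIs) and Pcdhac2 (2.52 and 2.42 times). Beta genes made up 4 of the 5 higher calls. In proprioceptor-like neurons 1 member was called against a background of 21.8%, Pcdhga11, which stood at 6.29 and 3.81 CPM, 0.460 and 0.387 times the other neurons. In peptidergic A-fibre-like neurons the background was 10.8% and 2 members were called, Pcdhac1 at 2.92 and 2.94 times and Pcdhgb7. The latter had 3 and 2 UMIs there, and its ratios of 0.399 (0.0800 to 1.22) and 0.443 (0.0521 to 1.69) had intervals that included 1.

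Peptidergic C-like neurons had 9 members higher and 1 lower, against a background of 16.6%. The largest ratios were those of Pcdhga12 (20.7 and 25.7 CPM, 2.61 and 2.82 times), Pcdhgc3 (2.67 and 2.38 times) and, downwards, Pcdhac1 (0.332 and 0.369 times). Of the 9 higher, 5 were gamma A or gamma B genes, and the gamma A genes summed stood at 2.01 and 2.0 times the other neurons. Trpm8 cold-like neurons had 7 higher and 2 lower against a background of 14.2%, led by Pcdhgc5 (4.11 and 4.54 times), Pcdhgc4 (3.30 and 4.93 times) and, downwards, Pcdhac1 (0.291 and 0.194 times). Their summed gamma B level was 2.49 and 2.07 times that of other neurons. C-LTMR-like neurons had 4 higher and 2 lower against 22.5%, led by Pcdhb6 (2.14 and 1.96 CPM, 3.57 and 3.81 times, on 23 and 15 UMIs), Pcdhgc4 (2.91 and 3.07 times) and, downwards, Pcdhac1 (0.305 and 0.329 times).

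In the other C-fibre classes most of the few members called were lower. The backgrounds count genes called in either direction, so this direction has no share of all genes beside it. Mrgprd nonpeptidergic-like neurons had 3 members lower and none higher against a background of 23.3%: Pcdhac1 (0.162 and 0.200 times), Pcdhac2 (0.276 and 0.288 times) and Pcdhgc4 (0.381 and 0.451 times). Mrgpra3 pruriceptor-like neurons had 2 lower, Pcdhac1 (0.157 and 0.218 times) and Pcdhgc4 (0.393 and 0.241 times), and 1 higher, Pcdhgb1 (4.87 and 5.40 CPM, 2.27 and 2.13 times), against 22.7%. Sst/Nppb pruriceptor-like neurons had 4 lower against 23.2%, among them Pcdhac1 (0.124 and 0.129 times), Pcdhgc4 (0.323 and 0.224 times) and Pcdhb8. The last had 1 and 3 UMIs there and ratios of 0.138 (0.00347 to 0.774) and 0.470 (0.0959 to 1.40). As a share of the 55, the members called were fewer than the background share in 7 of the 9 subtypes and close to it in the peptidergic C-like and Trpm8 cold-like ones. All 6 C-fibre and cold classes had Pcdhac1 among their lower calls.

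Sums over a subtype hide how a gene is used cell by cell, so the share of neurons with at least 1 UMI of a gene was set against the share there would be if the gene's UMIs had followed each cell's depth within its subtype and library. A ratio near 1 means UMIs spread over the cells as depth does, and a low ratio means UMIs gathered in fewer cells. This was done in the 5438 and 4088 cells of the 9 named subtypes, for genes whose share by depth lay between 5 and 80% in both libraries. The median ratio over 11023 such genes was 0.980 in each library, and 4.53% of them lay under 0.8 in both. This window and the limit of 0.8 were chosen after the values were seen.

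Of the 51 alternate members 44 were in that window, and 40 of the 44 lay under 0.8 in both libraries. Alternate alpha genes were the lowest, with all 11 in the window under 0.8 and a median ratio of 0.544 and 0.547. Gamma A genes had 10 of 10 under 0.8 (median 0.658 and 0.645), gamma B genes 4 of 4 (0.699 and 0.687) and beta genes 15 of 19 (0.753 and 0.736). The 4 that were not under 0.8 in both were Pcdhb11, Pcdhb12, Pcdhb19 and Pcdhb20. None of the 5 C-type genes was under 0.8: their median was 0.981 and 0.978, and the lowest was Pcdhac1 at 0.858 and 0.885. Within the single subtypes the alternate alpha median ran from 0.504 to 0.778 in the control and 0.456 to 0.737 in the Treg_Penk_KO library, while the median of all genes ran from 0.970 to 0.982 and from 0.968 to 0.986. Gamma A medians ran from 0.590 to 0.789 and from 0.572 to 0.722, and gamma B medians from 0.569 to 0.815 and from 0.540 to 0.744. Beta medians ran from 0.720 to 0.822 and from 0.645 to 0.846, and lay above 0.8 in both libraries in the Trpm8 cold-like class (0.820 and 0.836) and the Sst/Nppb pruriceptor-like class (0.822 and 0.846). Those medians rest on only 12 and 8 and on 11 and 9 beta genes. These classes also had the fewest UMIs of the named subtypes, and the part of that in their higher medians was not tested. C-type medians ran from 0.906 to 0.998 and from 0.921 to 1.07, and 1 C-type gene, Pcdhac1, was under 0.8 in proprioceptor-like neurons (0.738 and 0.737) and, in the control library, in Trpm8 cold-like neurons (0.786).

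The same contrast appears in single genes of the control library. Pcdha4 was seen in 15.6% of the neurons (14.6 to 16.6, exact Clopper-Pearson 95% interval) against 31.4% by depth, Pcdha6 in 14.5% against 26.7% and Pcdha12 in 18.8% against 28.9%. Among beta genes, Pcdhb17 was seen in 21.9% against 29.1%, Pcdhb22 in 20.4% against 27.0% and Pcdhb9 in 14.0% against 24.4%. Pcdhga3 was seen in 20.9% against 30.0%, Pcdhga7 in 13.4% against 26.9% and Pcdhga11 in 17.4% against 26.2%. Of the gamma B genes with the most UMIs, Pcdhgb2 was seen in 12.1% against 21.8%, Pcdhgb5 in 9.05% against 12.7% and Pcdhgb4 in 7.23% against 10.5%. The C-type genes were close to their share by depth, with Pcdhac2 in 60.9% against 62.1%, Pcdhgc3 in 48.7% against 50.3% and Pcdhgc4 in 12.1% against 12.2%. In the Treg_Penk_KO library these genes had ratios of 0.501 for Pcdha4, 0.574 for Pcdhb9, 0.541 for Pcdhga7, 0.520 for Pcdhgb2 and 0.992 for Pcdhac2. Because UMIs of an alternate gene come from fewer cells than depth gives, the counting intervals of the alternate genes' levels, which treat UMIs as independent, are too narrow.

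**Figure D3:**
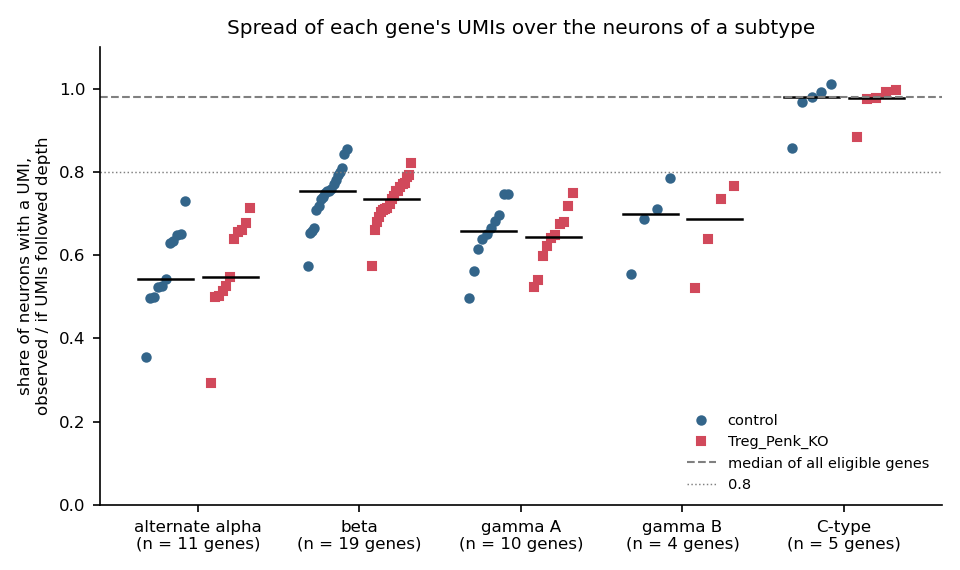
Share of neurons with a UMI divided by the share if UMIs followed depth (y axis), 1 point per gene in the 9 named subtypes together, by gene group and library, with black bars for group medians, a dashed line at the median of all genes in the control library (0.980) and a dotted line at 0.8. Alternate alpha genes centre on 0.544 and 0.547 and the 5 C-type genes on 0.981 and 0.978.

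How many members a single neuron carried was counted next. With each neuron thinned to 5000 UMIs, which kept 4241 and 2944 neurons and left out 2096 and 1894, 45.4% and 45.3% had at least 1 alternate alpha gene, 8.96% and 8.32% had at least 2, and 1.01% and 0.917% at least 3. The mean number of different genes per neuron was 0.556 and 0.546 for alternate alpha, 0.649 and 0.609 for beta, 0.481 and 0.459 for gamma A, 0.122 and 0.108 for gamma B and 0.879 and 0.823 for the C-type genes. Only 7 and 2 neurons kept 5 alternate alpha UMIs at that depth, so the mix within a cell was read from the unthinned counts, a measure added after the data were seen.

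In unthinned neurons with at least 2 UMIs of a group, the number of different genes was set against the number that the mix pooled over all neurons gives at the same UMI count. Alternate alpha genes gave 2.53 different genes per neuron against 4.73 from the mix in the control library, a ratio of 0.534, and 0.530 in the Treg_Penk_KO library. The ratios were 0.623 and 0.605 for gamma A, 0.656 and 0.642 for gamma B, 0.716 and 0.700 for beta and 0.922 and 0.920 for the C-type genes. Doublets were neither called nor removed, and their part in this result was not tested.

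Among neurons with at least 5 UMIs of a group, a single gene held more than 50% of them in 65.8% (63.5 to 68.0) of 1777 control and 71.1% (68.4 to 73.8) of 1112 Treg_Penk_KO neurons for alternate alpha. The same held in 54.9% and 58.9% for gamma A and in 22.4% and 25.8% for beta. For gamma B, a group of 6 genes, it held in 89.8% and 93.2% of only 264 and 146 neurons, and which gene led was not counted. In the other alternate groups many genes took the lead, and how often each did depends also on its number of probe pairs. Of the neurons led by an alternate alpha gene, Pcdha4 led 19.2% and 19.8%, Pcdha12 13.9% and 13.8%, Pcdha6 12.7% and 13.8%, and Pcdha8, the rarest, 0.342% and 0.126%. Each of the 12 alternate alpha genes led at least 1 neuron in each library. Among beta genes Pcdhb9 led 26.9% and 22.9% of the led neurons while holding 9.74% and 10.9% of the beta UMIs, ahead of Pcdhb22 (17.1% and 16.1%) and Pcdhb17 (14.3% and 16.1%). In gamma A, Pcdhga3 led 20.6% and 18.4%, Pcdhga7 19.0% and 20.5%, and Pcdhga11 13.6% and 8.01%.

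C-type genes differed: 1 gene held more than 50% in 78.5% and 79.2% of neurons, but it was mostly the same gene. Pcdhac2 led 77.3% and 75.5% of these neurons and Pcdhgc3 20.9% and 22.5%, while Pcdhac1 led 1.84% and 2.03% though it held 17.2% and 15.9% of the C-type UMIs. In neurons with at least 20 C-type UMIs the leading gene held a median of 63.6% and 64.2%, close to the 62.5% and 63.1% that the top gene held in the pool of those neurons.

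The most sharply resolved alternate mixes came from the 167 control and 92 Treg_Penk_KO neurons with at least 20 alternate alpha UMIs. These are the deepest barcodes, with median totals of 186085 and 155409 UMIs, and are 2.64% and 1.90% of the neurons. Their leading alpha gene held a median of 54.5% and 55.0% of the alternate alpha UMIs, the leading 2 genes 89.7% and 90.5%, and the leading 3 genes 95.8% and 96.1%. They held a mean of 4.28 and 4.05 different alternate alpha genes, where the mix pooled over the same neurons gives 9.07 and 8.96 at their UMI counts. For gamma A, 135 and 48 neurons gave 77.3% and 77.7% for the leading 2 genes, with 5.17 and 5.12 different genes against 8.65 and 8.68 from the mix. For beta genes, 290 and 137 neurons gave 52.4% and 55.0% for the leading 2, with 8.75 and 8.16 different genes against 13 and 12.6. C-type genes gave 3.45 and 3.42 against 3.61 and 3.56.

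Outside neurons, the alternate alpha genes parted from the other groups. Satellite glia form a sheath around each neuron body. In cells that resembled them the alternate alpha genes stood at 48.3 (38.8 to 59.5) and 49.7 (38.9 to 62.5) CPM on 89 and 72 UMIs, which was 0.414 (0.333 to 0.510, exact conditional binomial 95% interval) and 0.413 (0.323 to 0.520) times the neurons' 117 and 120.3 CPM. Gamma A genes stood at 221 and 232 CPM, 2.19 and 2.43 times the neurons, and gamma B genes at 79.8 and 101 CPM, 3.43 (2.89 to 4.05) and 4.33 (3.64 to 5.11) times. Beta genes were at 1.54 and 1.70 times and C-type genes at 1.15 and 1.15 times. The 6 neuron markers themselves had a median ratio of 0.471 and 0.475 in these cells. Alternate alpha genes were therefore at about the neuron markers' ratio and the gamma groups above 1. How much of any glial level is RNA from neurons was not tested.

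Gene by gene, 19 of the 55 members were 2-fold or more higher in satellite glia-like cells in both libraries, 7 were lower and 29 were neither. Over all 13528 genes tested, 18.4% were higher and 7.59% lower. The higher members were 7 of 21 beta, 5 of 11 gamma A, 5 of 6 gamma B and 2 of 5 C-type genes, and the lower were 7 of 12 alternate alpha genes. Of the neuron markers, 4 of 6 were lower. The highest ratios were those of Pcdhgb7, at 10.7 (3.78 to 24.6) and 8.57 on 6 and 5 glial UMIs, and of Pcdhgc5, at 10.9 and 11 CPM against 2.03 and 2.15 in neurons (5.34 and 5.14 times). The lowest were those of Pcdha2, at 2.17 and 4.14 CPM against 12.4 and 14.4 (0.175 and 0.288 times), and Pcdha10, on 2 and 4 glial UMIs, with ratios of 0.15 (0.0182 to 0.544) and 0.380 (0.103 to 0.975).

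Of the gamma B genes with the most UMIs, Pcdhgb2 stood at 29.9 and 35.2 CPM in satellite glia-like cells (3.08 and 3.22 times the neurons), Pcdhgb5 at 4.65 and 5.60 times and Pcdhgb4 at 3.03 and 4.63 times. Among gamma A genes Pcdhga7 was at 2.01 and 2.26 times, Pcdhga11 at 2.38 and 1.99 times, and Pcdhga3 at 0.677 and 1.62 times, so the last was on different sides of 1 in the 2 libraries. Pcdhb17 (1.39 and 1.09 times), Pcdhb22 (0.730 and 0.860 times) and Pcdhb9 (1.38 and 1.71 times) were not called. Pcdha4 was called lower at 0.296 and 0.330 times, while Pcdha12 (0.464 and 0.894 times) and Pcdha6 (0.667 and 0.398 times) were not. Of the C-type genes, Pcdhgc3 was at 141 (124 to 159) and 146 (127 to 167) CPM, 2.82 and 2.83 times the neurons, whereas Pcdhac1 (0.466 and 0.509 times) and Pcdhac2 (0.718 and 0.604 times) were below 1. Pcdhgc4, at 1.22 and 1.63 times, had intervals that included 1.

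**Figure D4:**
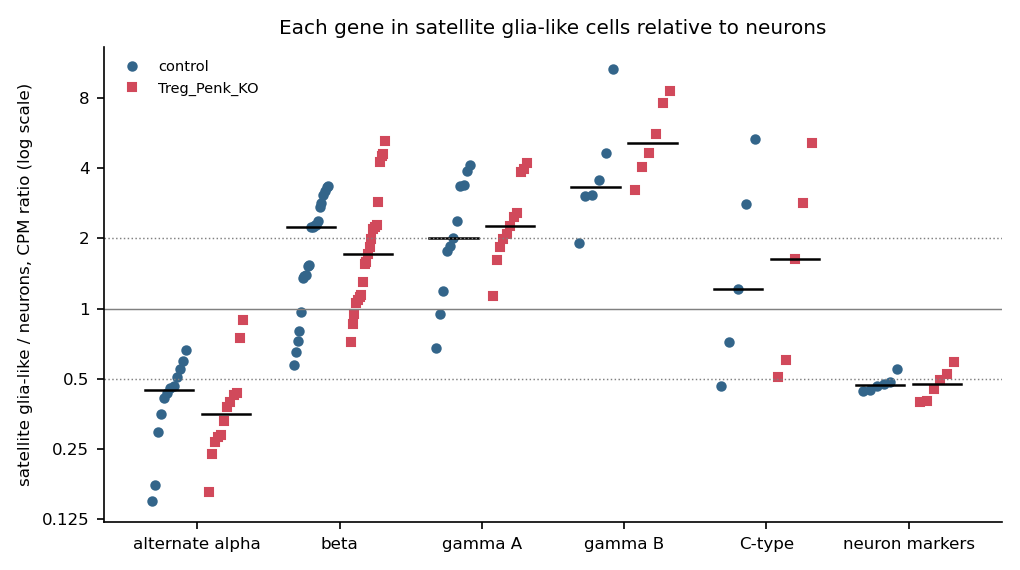
Ratio of CPM in satellite glia-like cells to CPM in neurons (y axis, log scale), 1 point per gene, for the 5 gene groups and the 6 neuron markers, by library, with black bars for medians, a solid line at 1 and dotted lines at 2-fold. Alternate alpha medians (0.446 and 0.355) lie near those of the neuron markers (0.471 and 0.475), and gamma B medians (3.32 and 5.12) lie above 2.

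The share of cells with a UMI of a gene was also compared, with macrophage-like cells as the background, since macrophages are not known for these genes. Median totals were 937 and 933 UMIs in satellite glia-like cells, 963 and 955 UMIs in macrophage-like cells and 10942 and 7950.0 UMIs in neurons. Unthinned, Pcdhgc3 was seen in 15.6% (13.8 to 17.5) and 15.6% (13.5 to 17.8) of satellite glia-like cells, in 6.45% (4.76 to 8.51) and 6.08% (4.27 to 8.35) of macrophage-like cells and in 48.2% and 43.7% of neurons. With every cell thinned to 500 UMIs, which left out no cell, these were 6.95% (5.70 to 8.36) and 7.83% (6.35 to 9.54) in satellite glia-like cells, 1.82% (0.974 to 3.10) and 1.39% (0.601 to 2.72) in macrophage-like cells and 2.52% and 2.67% in neurons. At 1 depth, Pcdhgc3 was thus seen in a larger share of satellite glia-like cells than of neurons or macrophage-like cells. Pcdhac2 was seen, unthinned, in 11% and 9.31% of satellite glia-like cells, 11.5% and 10.1% of macrophage-like cells and 63.5% and 58.2% of neurons. At 500 UMIs it was seen in 3.98% (3.04 to 5.10) and 3.66% (2.65 to 4.91) of satellite glia-like cells, 2.81% (1.72 to 4.30) and 4.17% (2.69 to 6.14) of macrophage-like cells and 6.34% and 6.30% of neurons. The intervals of the first 2 classes overlapped in each library, so Pcdhac2 in satellite glia-like cells was not resolved from the background. Macrophage-like cells carried alternate alpha genes at 76.9 and 69.2 CPM, above the satellite glia-like cells, and their gamma A level was 122 and 90.8 CPM, below them. Their gamma B level, 43.3 and 35.7 CPM, was above the 23.3 and 23.4 CPM of neurons, although this class served as the background. Gamma B genes were also above neurons in endothelial-like (58.5 and 53.2 CPM), mural-like (73.7 and 59.6 CPM) and Schwann-like cells (45.7 and 41.9 CPM). A gamma B level above that of neurons was thus not particular to satellite glia-like cells. An unnamed cluster led by the globin genes Hbb-bs, Hba-a2 and Hbb-bt, with neuron markers at 6115 and 6644 CPM, held alternate alpha genes at 126 and 121 CPM, gamma A genes at 166 and 137 CPM and gamma B genes at 46.9 and 28.4 CPM. Its alternate alpha level was near that of neurons and its gamma levels lay between those of neurons and satellite glia-like cells.

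Fibroblast-like cells had 18 members higher and 1 lower than neurons, against 16.8% and 5.87% of all genes. Their summed gamma A level was 2.62 and 2.26 times and gamma B 4.38 and 3.68 times that of neurons, and Pcdhgc3 stood at 178 and 179 CPM. Myelinating Schwann-like cells, which sheathe axons, had 4 members higher and 9 lower, against 17.1% and 7.86% of all genes. Their alternate alpha level was 0.415 and 0.430 times that of neurons, and their gamma A level 1.36 and 1.22 times. Clusters of satellite glia-like and Schwann-like cells with neuron markers above 66.7% of the neurons' level were kept out of these classes, a limit set after the data were seen; they held 6.78% and 6.4%, and 3.03% and 3.46%, of the cells. In the satellite glia-like ones, neuron markers stood at 5153 and 5033 CPM, alternate alpha genes at 0.642 and 0.564 times the neurons and gamma B genes at 2.26 and 2.05 times.

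Between the libraries, the ratio of Treg_Penk_KO to control in neurons was 1.03 (1.01 to 1.05) for alternate alpha, 0.969 for beta, 0.948 for gamma A, 1.01 for gamma B and 0.946 for the C-type genes. By subtype, gamma A genes were lower in Treg_Penk_KO in 7 of the 9 named subtypes, most in C-LTMR-like neurons at 105 against 81.6 CPM (0.775, interval 0.702 to 0.855), in Mrgpra3 pruriceptor-like neurons at 139 against 113 CPM (0.817, 0.752 to 0.887) and in Mrgprd nonpeptidergic-like neurons at 119 against 102 CPM (0.861, 0.822 to 0.902). The subtype ratios ran from 0.908 to 1.05 for alternate alpha, from 0.913 to 1.05 for beta, from 0.842 to 1.2 for gamma B and from 0.9 to 1.02 for the C-type genes. A step of 25% higher or 20% lower in Treg_Penk_KO was used to count genes. Of the 55 members 7 lay past it, against 6.79% of all 13499 genes. With only unshared droplets 12 of the 54 members left did, and with each cell counted equally 15 did. The share of all genes was not computed for these 2 alternatives. Higher in Treg_Penk_KO were Pcdha5 (3.73 against 4.73 CPM, 1.27, interval 1.14 to 1.41), Pcdhb3 (3.60 against 4.68 CPM, 1.30, 1.17 to 1.45) and Pcdhgb7 (1.32, 0.891 to 1.94). Lower were Pcdhb4 (4.11 against 3.17 CPM, 0.771), Pcdhgb5 (4.91 against 3.81 CPM, 0.778), Pcdhgb6 (2.14 against 1.54 CPM, 0.720) and Pcdhga11.

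Pcdhga11 was lower in Treg_Penk_KO in each of the 9 named subtypes. In all neurons it stood at 11.9 CPM on 2448 UMIs in control neurons and at 8.68 CPM on 1078 UMIs in Treg_Penk_KO neurons, a ratio of 0.732 (0.681 to 0.787). Its ratio in the named subtypes ran from 0.481 to 0.863, and the interval included 1 in 2 of them, the Trpm8 cold-like class (0.819, 0.483 to 1.36) and the Sst/Nppb pruriceptor-like class (0.863, 0.636 to 1.17), while the other 5 genes past the step with intervals clear of 1 had subtypes on both sides of 1, such as Pcdhgb6 with 8 of 9 lower and Pcdhb3 with 6 of 9 higher. The ratio of Pcdhga11 was 0.610 in satellite glia-like and 0.749 in myelinating Schwann-like cells, both given without intervals. In satellite glia-like cells Pcdhga11 was not among the members with enough UMIs to compare, so no lower level is concluded there. The share of neurons with a UMI of Pcdhga11 was 16.7% and 10.9%, and 2.49% and 1.63% at 2000 UMIs per neuron. Library, depth and group are 1 and the same comparison here, so they cannot be told apart. With the subtypes weighted equally, Pcdhb3 came to 1.08 and Pcdhb4 to 0.871, so their sizes changed with this weighting. The cause of that change was not tested. Without the deepest 5% of cells Pcdha5 came to 1.13 and Pcdhgb5 to 0.862.

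In satellite glia-like cells 5 members had enough UMIs to compare, and 1 lay past that step, Pcdhac2 at 0.784 (0.618 to 0.992), against 13.3% of all genes. In myelinating Schwann-like cells 3 of 10 did, all lower, against 9.87% of all genes. Summed gamma B genes had a ratio of 1.27 (1.00 to 1.61) in satellite glia-like cells.

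**Figure D5:**
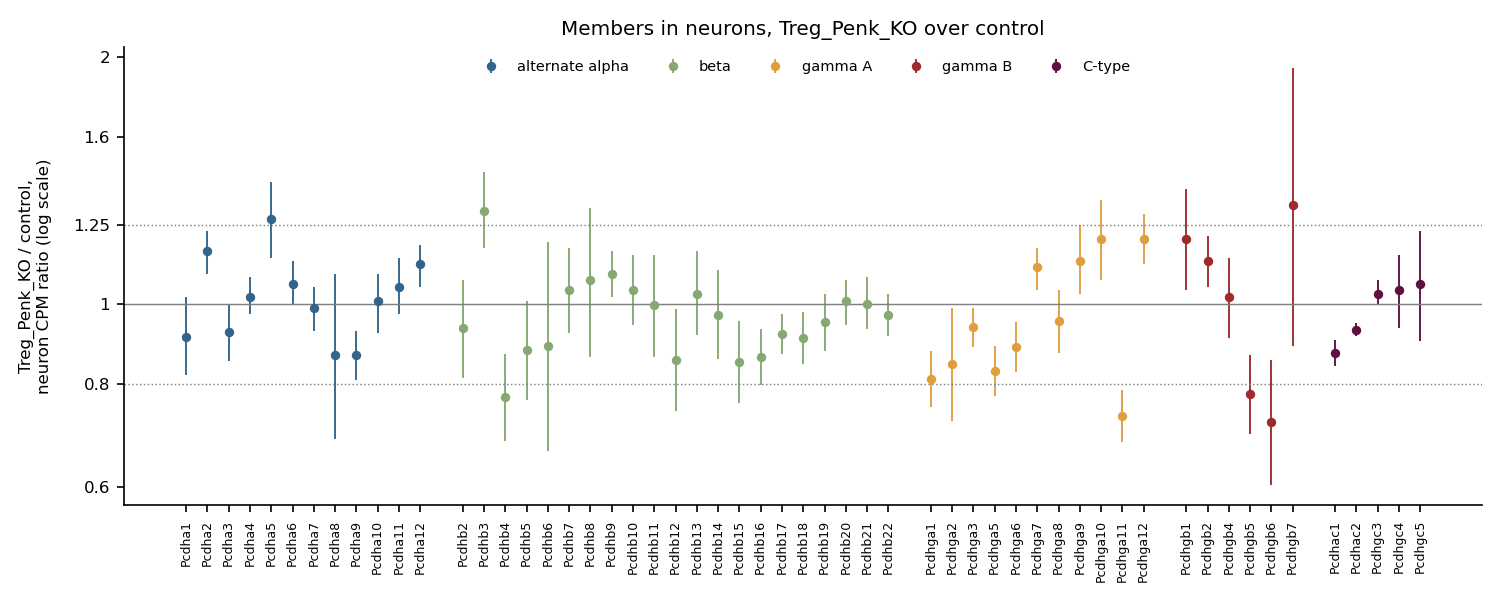
Ratio of Treg_Penk_KO to control CPM in neurons (y axis, log scale) for the 55 members with at least 100 UMIs, coloured by gene group, with exact conditional binomial 95% intervals, a solid line at 1 and dotted lines at 25% higher and 20% lower. Pcdhga11 lies lowest among the gamma A genes at 0.732, and no C-type gene lies past the dotted lines. By named subtype, Pcdhac1, Pcdhac2 and Pcdhgc3 were each lower in Treg_Penk_KO in 7 of 9. Pcdhgc4 was higher in 6 of the 8 counted and Pcdhgc5 in 6 of 9.

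Related genes gave a background for the family. Non-clustered protocadherins, genes outside the clustered arrays, had 2 of 10 genes under 0.8 in the spread over cells (median 0.824 and 0.850). The 19 regulators of clustered protocadherin promoters that could be compared, among them the cohesin subunit gene Smc1a, the cohesin loader gene Mau2 and the histone methyltransferase gene Nsd1, had none under 0.8 (0.995 and 1.00), and partners and effectors had 1 of 21 (0.985 and 0.984). Between libraries in neurons, 1 of 12 non-clustered protocadherins was higher (Pcdh12, 1.52, 1.16 to 1.99) and 1 lower (Pcdh8, 9.35 against 6.88 CPM, 0.736, 0.678 to 0.798). None of 19 regulators and none of 26 partners was past the step. Those with the most UMIs stayed close to 1, at 0.983 for Nsd1, 1.03 for Smc1a and 1.07 for Mau2 among regulators. Among partners, Cyfip2 and Nckap1, parts of the WAVE actin regulator, were at 1.03 and 0.973, and the kinase gene Prkce at 0.993.

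In satellite glia-like cells 1 of 12 non-clustered protocadherins was called higher than in neurons, Pcdh10 at 232 and 247 CPM against 40.7 and 36.7 (5.70 and 6.73 times). Those with the most UMIs were near or above 1, Pcdh1 at 1.16 and 1.21 times, Pcdh9 at 1.67 and 1.89 and Pcdh7 at 1.2 and 1.53. Of the 19 regulators 3 were higher and none lower, and Ctcf, which binds the alternate promoters, was at 30.1 and 30.2 CPM in neurons and 42.9 and 60.7 CPM in satellite glia-like cells. Of the 26 partners 5 were higher and 5 lower, with Cyfip2 at 0.457 and 0.391 times and Prkce at 0.462 and 0.445 times, near the ratio of the neuron markers.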

How the data were processed

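Per the labels' protocols, fixed ganglion cells were profiled with probe pairs (10x Flex) and reads were aligned to GRCm39 with Cell Ranger 7.0, while the matrix headers name version 8.0.1. The submitters' processing notes also list Seurat, without saying what for. The files deposited by the authors hold whole-number UMI counts that were not normalized. Nothing in the sources used here says that doublets were removed, and none were removed here.

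The members, gene lists, markers and tests were chosen with earlier results of these data known. A barcode needed 500 UMIs and 300 genes to be kept, which left 15690 and 12053. Cells were clustered with scanpy 1.11.5 (Python 3.11.15, igraph 0.11.9): counts per 10000, log scale, 3000 variable genes without the members, 40 principal components, 15 neighbours, Leiden resolution 1.0. Clusters were named from marker genes, and a cluster that met no name stayed unnamed. UMIs were summed per library and class. Calls need 100 UMIs and a 2-fold ratio in both libraries, or a step of 25% up or 20% down between libraries. Intervals are exact Poisson, conditional binomial or Clopper-Pearson at 95%, computed with scipy 1.17.1. All treat UMIs and cells as independent, so they cover counting error only. Steps were tested on simulated data.

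Named with values are the C-type genes, the 3 members with the most UMIs in each alternate group, the 2 highest and 2 lowest satellite glia ratios, up to 3 members called per subtype by ratio, up to 6 past the step between libraries with the interval clear of 1, and of each related list the 3 with the most UMIs and those past the step. Pcdhgb1, Pcdhb1, Pcdha8, Pcdhgb7 between libraries, Ctcf, Pcdh10 and the 4 beta genes not under 0.8 were singled out after their values were seen. Alternatives were another UMI minimum, unshared droplets only, no deepest cells, equal weight per cell or subtype, thinning, other clusterings and other thresholds.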

Additional observations from a re-analysis of the deposited data

How the results depend on the processing

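Of 178 alternative values of the main comparisons, 156 stayed the same. For ratios this means the same side of the threshold, for counts within 1.5 times, and for shares within the interval of the main value. A ratio that did not reach the threshold could cross 1 and still count as the same. No ratio past the threshold changed direction, while counts and shares could not be labelled as reversed. Of 400 values of single named genes, all ratios, 353 stayed the same, 31 lost a call and 16 gained one. None past the threshold changed direction. The counts of genes under 0.8 in the spread over cells, and the shares of neurons led by 1 gene, held under each alternative run for them.

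The glial comparison depended most on which cells were called satellite glia-like. With the clusters that carry more neuron markers included, an alternative added after seeing the data, 6 members were higher and 0 lower than in neurons, alternate alpha stood at 0.629 and 0.552 times and gamma A at 1.41 and 1.44 times. With the members used in clustering, 14 were lower and gamma A stood at 1.87 and 1.93 times, and at clustering resolution 2.0 gamma A stood at 1.72 and 1.78 times. At a minimum of 1000 UMIs per barcode 4 were lower. With cells thinned to 500 UMIs only 15 members could be compared, 4 higher and 1 lower, and gamma A in Treg_Penk_KO was 1.98 times. Beyond the cells and UMIs each setting keeps, the cause was not tested. The share of all genes called was not computed for these settings either, so the counts of members have no background here.

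Between libraries, the number of members past the step of 25% up or 20% down in neurons was 12 with only unshared droplets, 15 with each cell counted equally and, of 3 comparable genes at 500 UMIs, 0. A limit of 1.5-fold gave 70 higher and 54 lower calls over the subtypes. For these alternatives the share of all genes called was not computed, so the counts have no background beside them. At 2000 UMIs, 2.0% and 1.95% of neurons had at least 2 alternate alpha genes, so that count rests on depth. Members in glia rest on few UMIs. No paired analysis was possible because each group has 1 library.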
